A study of Mus musculus with 15 samples.

Results

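The lungs of 3 mice fed 5000 ppm permethrin for 7 days were compared with the lungs of 3 mice fed the control diet, which held 0 ppm, for the same 7 days. All were female Crlj:CD1(ICR) mice aged 11 weeks, an outbred stock, so that mice of a group are not genetically identical. Permethrin is a synthetic pyrethroid, an insecticide whose targets are the voltage-gated sodium channels of nerve and muscle, and the powdered diets were eaten freely. The 6 arrays were taken by diet from a study of 15, in which 3 mice each also received 20, 500 or 2500 ppm. Each array held the total RNA of 1 whole lung sample, labelled with Cy3 and hybridised to a 1-colour Agilent mouse expression array. In bulk lung RNA, fewer cells of a type and less RNA per cell cannot be told apart.

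The 3 control arrays lay on slide 1 and the 3 arrays at 5000 ppm on slide 2, so that slide and diet cannot be told apart in this comparison. Slide 1 also held the arrays at 20 ppm and mice 1 and 2 at 500 ppm, and slide 2 held mouse 3 at 500 ppm and the arrays at 2500 ppm. The share of probes well above background was 76.0% to 80.9% on control arrays and 73.2% to 75.2% at 5000 ppm. The 75th percentile of log2 signal, to which each array was scaled, was 8.54 to 8.88 on control arrays and 8.21 to 8.32 at 5000 ppm. Control mouse 1 stood apart from the other 5 arrays on their first principal component, which held 49.4% of the variance. Markers that define lung, the club cell secretoglobin Scgb1a1 and the alveolar type 2 surfactant protein Sftpc, were well above background on all 6 arrays, with mean scaled log2 levels of 9.58 and 9.37 in controls.

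The transcription factor Nrf2 (gene Nfe2l2) is held in the cytoplasm and degraded through Keap1, and it accumulates when electrophiles or oxidants modify Keap1. It then pairs with small Maf proteins at antioxidant response elements and switches on enzymes that conjugate, reduce or export reactive compounds and that supply glutathione and NADPH. Nuclear receptors such as the constitutive androstane receptor (Nr1i3) and the pregnane X receptor (Nr1i2), and the aryl hydrocarbon receptor, control other sets of drug-metabolising genes, among them cytochromes P450. In mammals pyrethroid esters are hydrolysed by carboxylesterases and oxidised by cytochromes P450, and club cells of the airway are rich in P450 enzymes.

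At 5000 ppm, 15 of 42054 tested probes differed from control, 14 of them higher and 1 lower. The higher probes were for glutathione transferases (Gsta2 and its paralog Gm10639), reductases (Nqo1, Cbr3, Txnrd1, Srxn1), the glutathione peroxidase Gpx2, the oxidising enzymes Aldh3a1 and Aox1, the stress-inducible flavoprotein gene Osgin1, the endoplasmic reticulum nucleotidase Entpd5 (2 probes), and 2 transcripts known by genome span alone. Higher calls made up 0.0333% of the tested probes and the lower call 0.00238%. A probe was tested when it was well above background on all 3 arrays of either diet, and it was called when the adjusted p of limma's moderated test, with Benjamini-Hochberg adjustment over all tested probes, was under 0.05. Levels below are log2 signals scaled so that 0 is the 75th percentile of an array, and n is 3 mice per diet. Differences are log2 differences of 5000 ppm minus control with their standard error (SE). In the main fit each SE and p used a residual variance taken over all 15 arrays, not over the arrays compared alone. The unadjusted p was under 0.05 for 2028 probes, against 2103 expected by chance. The median difference over all tested probes was 0.05, and 57.5% of the probes were above 0. All 3 treated mice lay above all 3 controls for 12.1% of the probes and below them for 5.17%.

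**Figure D1:**
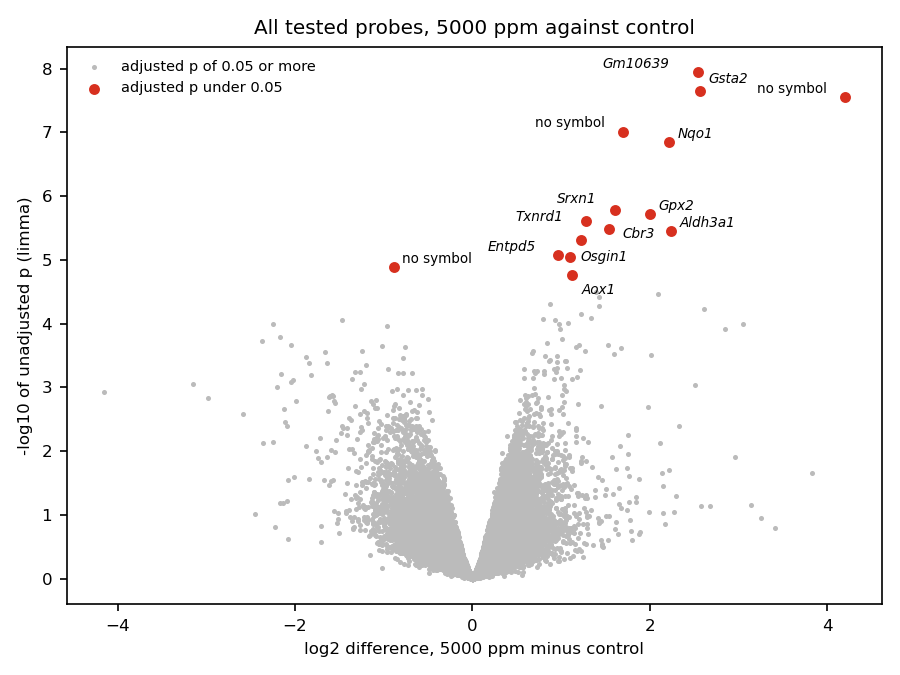
Log2 difference of 5000 ppm minus control (x axis) against the -log10 of the unadjusted p from limma (y axis) for the 42054 tested probes, 3 mice per diet. The 15 red points passed an adjusted p of 0.05, and 14 of them lie on the right.

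The largest changes among called genes with a symbol were in alpha-class glutathione transferases, which couple glutathione to electrophiles. Gsta2 had levels of -0.35, -0.41 and -0.42 in control mice 1 to 3 and of 1.79, 2.17 and 2.54 in mice 1 to 3 at 5000 ppm. The 3 controls lay close together (SD 0.04), and the lowest treated mouse was more than 2 log2 units above the highest control. The difference was 2.56 ± 0.21 (SE), or 5.91-fold, with an adjusted p of 0.000388 (limma). Gm10639, an annotated protein-coding gene that lies 3 places from Gsta2 in the order of the GRCm38.p6 annotation, ran from 0.97 to 1.04 in controls and from 3.15 to 3.90 at 5000 ppm. Its difference was 2.54 ± 0.20, with an adjusted p of 0.000388 (limma). The genes of that stretch next to Gsta2 on its other side, Dppa5a, Ooep and Ddx43, did not pass the test, with differences of -0.22, 0.61 and -0.25.

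Both transcripts without a symbol that rose are given in the files by spans on the plus strand of chromosome 9, and the headers of the slide 1 scans name mm9 as the build. The first, chr9:78107225-78118850, was dim in controls (-3.30, -2.62 and -2.90) and bright at 5000 ppm (0.87, 1.32 and 1.58). Its difference of 4.20 ± 0.35, or 18.4-fold, was the largest among the called probes, with an adjusted p of 0.000388 (limma). The second, chr9:78104935-78116974, which overlaps the first, had levels of 0.51 to 0.90 in controls and 2.24 to 2.69 at 5000 ppm, a difference of 1.69 ± 0.16 with an adjusted p of 0.00103 (limma). No gene was assigned to these spans, and mm9 positions were not set against the GRCm38.p6 positions of Gsta2. Whether probes for such paralogs read each other's RNA was not tested.

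The upstream sequences of Gsta2 and Gm10639 are shown because both genes rose by nearly the same amount. They are the 250 bases before each gene's start from RefSeq, GRCm38.p6, 5′ to 3′ on the gene's own strand, and capitals mark the best ungapped stretch that both hold. That stretch is 88 bases long, with 81 bases (92.0%) identical, and it begins 129 bases before the start of Gsta2 and 111 bases before the start of Gm10639.
Gsta2, chr9:78347146-78347395, minus strand: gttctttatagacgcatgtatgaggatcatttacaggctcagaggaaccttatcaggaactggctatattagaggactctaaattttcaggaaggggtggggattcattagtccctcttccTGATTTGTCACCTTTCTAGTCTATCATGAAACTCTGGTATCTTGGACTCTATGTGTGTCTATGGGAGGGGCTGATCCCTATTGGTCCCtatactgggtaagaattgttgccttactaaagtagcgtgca
Gm10639, chr9:78289678-78289927, plus strand: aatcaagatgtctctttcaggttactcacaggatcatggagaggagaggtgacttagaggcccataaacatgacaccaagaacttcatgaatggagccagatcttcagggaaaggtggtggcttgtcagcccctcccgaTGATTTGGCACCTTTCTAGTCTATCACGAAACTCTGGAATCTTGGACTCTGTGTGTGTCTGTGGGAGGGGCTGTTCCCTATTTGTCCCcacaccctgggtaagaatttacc

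Reductases formed the next group. Nqo1, a quinone reductase and a widely used Nrf2 target, had levels of -1.72, -1.66 and -1.78 in controls and 0.28, 0.49 and 0.71 at 5000 ppm. The groups were far apart, and the difference was 2.22 ± 0.21, or 4.64-fold, with an adjusted p of 0.00118 (limma). Cbr3, a carbonyl reductase, went from 2.85, 2.98 and 3.30 to 4.43, 4.74 and 4.59, a 2.92-fold rise. Srxn1, the sulfiredoxin that repairs overoxidised peroxiredoxins, had levels of 2.43, 2.58 and 2.96 in controls and of 4.26, 4.23 and 4.31 at 5000 ppm. Its treated mice lay closer together (SD 0.04) than its controls (SD 0.27). Txnrd1, the cytosolic thioredoxin reductase, rose 2.44-fold, from 2.51, 2.67 and 2.85 to 3.92, 3.98 and 3.98. A second Txnrd1 probe had a difference of 1.05 ± 0.25 with no overlap between groups, but it did not pass the test (adjusted p = 0.46, limma). Adjusted p-values from limma were 0.015 for Cbr3, 0.0114 for Srxn1 and 0.013 for Txnrd1.

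Gpx2, a glutathione peroxidase of epithelia that reduces hydroperoxides, had levels of 2.93, 3.48 and 3.14 in controls and of 4.87, 5.41 and 5.27 at 5000 ppm. Its rise was 4.0-fold (log2 difference 2.0 ± 0.24, adjusted p 0.0114, limma). Aldh3a1, an aldehyde dehydrogenase that is known as a target of the aryl hydrocarbon receptor as well as of Nrf2, went from 2.72, 2.43 and 2.83 to 4.73, 4.99 and 4.98, a 4.73-fold rise with an adjusted p of 0.015 (limma). Aox1, an aldehyde oxidase, rose 2.17-fold, from 1.54, 1.78 and 1.86 to 2.69, 2.79 and 3.04, and its adjusted p of 0.048 (limma) was the closest to the threshold. Osgin1, a growth-inhibitory gene induced by oxidative stress, rose 2.15-fold, from 1.46 to 1.68 in controls and 2.58 to 2.84 at 5000 ppm (adjusted p 0.0293, limma).

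Entpd5 hydrolyses UDP and GDP in the endoplasmic reticulum, where it serves the folding of glycoproteins. One of its probes had levels of 0.54, 0.39 and 0.82 in controls and of 1.75, 1.92 and 1.75 at 5000 ppm, a 2.34-fold rise (adjusted p 0.019, limma). The other, dimmer probe had levels of -0.66, -0.58 and -0.51 in controls and of 0.33, 0.50 and 0.32 at 5000 ppm, a 1.96-fold rise (adjusted p 0.0293, limma).

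The 1 probe that fell reads a span on the minus strand of chromosome 5, chr5:149775338-149781472 (mm9), with no gene name. Its levels were -1.45, -1.56 and -1.69 in controls and -2.61, -2.29 and -2.45 at 5000 ppm, and it fell by 0.89 on the log2 scale (SE 0.13, adjusted p 0.0394, limma). A second probe for the same span and strand had a difference of -0.51 ± 0.39, and its groups overlapped.

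**Figure D2:**
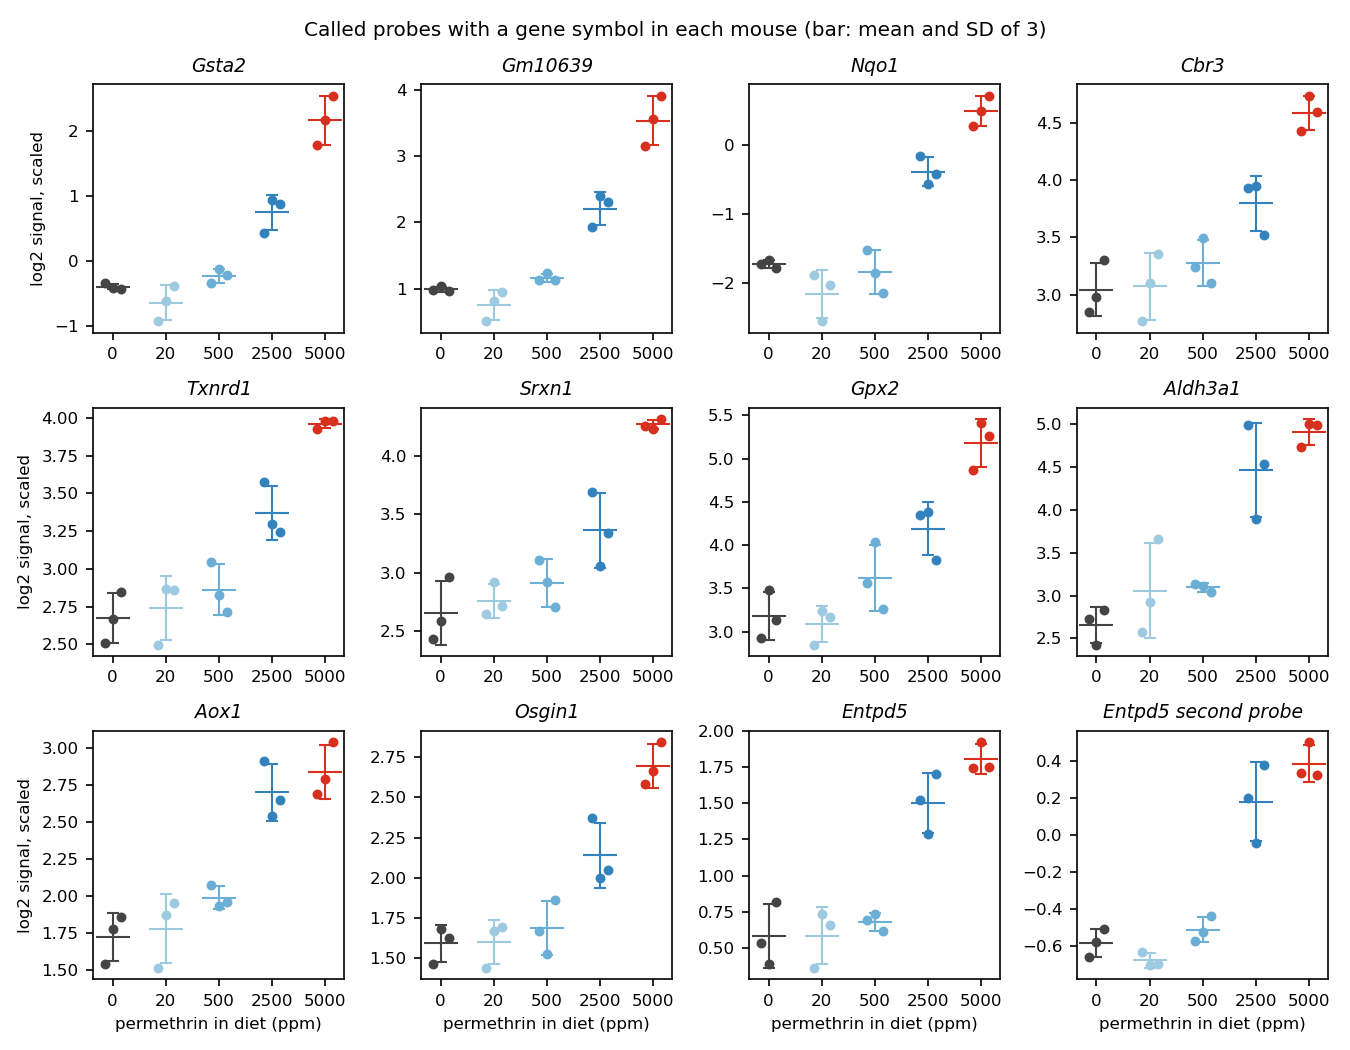
Scaled log2 signal (y axis) of the 12 called probes with a gene symbol in each of the 15 mice, by permethrin in the diet in ppm (x axis); points are mice, horizontal bars the mean and whiskers the SD of 3 mice. In each panel the 3 mice at 5000 ppm lie above the 3 controls, with the mice at 2500 ppm between or beside them.

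The arrays at 2500 ppm were hybridised on the same slide as those at 5000 ppm, so that the difference between these 2 diets stays within a slide, whereas values set against control cross slides at both doses. For all 14 higher probes the 2500 ppm mean lay between the control and 5000 ppm means, and each of its 3 mice was above each control, which held for 7.85% of all tested probes. Both doses were set against the same controls, and the 14 probes were chosen by their high values at 5000 ppm. That choice favours the counts and shares given here, which describe these probes and are no independent evidence. The difference reached at 2500 ppm was 43.7% to 87.5% of that at 5000 ppm on the log2 scale, with a median of 50.1%. Gsta2 had levels of 0.44, 0.93 and 0.88 at 2500 ppm, below the lowest mouse at 5000 ppm. Aldh3a1, at 4.98, 3.89 and 4.53, Aox1, at 2.92, 2.54 and 2.65, and the dimmer Entpd5 probe overlapped between the 2 diets. Every mouse at 5000 ppm was above every mouse at 2500 ppm for 11 of the 14 probes, and for 8.29% of all tested probes. No probe passed the test of 5000 against 2500 ppm itself (0 of 42054, 0%), in which limma gave an unadjusted p under 0.05 for 1917 probes. The smallest adjusted p was 0.32 (limma), shared by Gsta2 (difference 1.42 ± 0.21) and Gm10639 (1.33 ± 0.20).

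Within 500 ppm, mouse 3 lay on slide 2 and mice 1 and 2 on slide 1, so that values at 1 dose can be set across slides, although the mice differ too. For the 14 higher probes, mouse 3 minus the mean of mice 1 and 2 ran from -0.53 (Gpx2) to 0.95 (the chr9:78107225-78118850 transcript), and it was below 0 for 9 of them. For Gsta2 it was 0.01, for Nqo1 -0.46 and for Srxn1 -0.31. The median over all tested probes was 0.15. With slide as a fixed term, whose size then rests on these 3 arrays alone, the differences of the 14 probes at 5000 ppm ran from 0.84 to 3.25 and 13 of them passed. That fit called 6020 probes in all, 79 higher (0.188%) and 5941 lower (14.1%). With slide as a random block the differences ran from 0.93 to 3.89, and 5 passed (0.0119% of all tested probes): Gsta2, Gm10639, Nqo1 and the 2 chromosome 9 transcripts. The array of 500 ppm mouse 3 also stood apart from the other 14 on the first principal component of all arrays. Its extraction status was 1, as for 2500 ppm mouse 3, and 0 for the other arrays. On it 87.04% of probes were well above background, against 77.68% and 74.65% for mice 1 and 2 at 500 ppm. Slide and the quality of this 1 array cannot be told apart in the values of this paragraph.

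Genes around Nrf2 were then described by role, with 1 probe per gene, the brightest over all arrays. Over all 18942 genes, 12449 were above 0 and 11 (0.0581%) were called higher. In 2997 (15.8%) all 3 treated mice lay above all 3 controls, against 722 (3.81%) with all below. Of 111 genes in 9 lists of the Nrf2 axis, 107 were tested. Of these, 7 were called, all higher, 86 were above 0, and in 51 (47.7%) all treated mice lay above all controls, with 1 gene all below. Their median difference was 0.30, against 0.10 over all genes. Without control mouse 1 the 2 medians were 0.23 and 0.04. Under the alternatives given below, the Nrf2 axis median ran from 0.16 (quantile normalization) to 0.43 (slide as a fixed block). Its excess over the median of all tested probes was 0.25, and it ran from 0.11 (normexp) to 0.62 (slide as a fixed block). That baseline counts every tested probe and not 1 per gene. In the main fit it was 0.05, below the 0.10 of all genes, so the excess over all genes was smaller. The median of 5000 minus 2500 ppm was 0.20 for these genes and 0.07 for all genes. These lists were drawn up with results of the same arrays known, so their counts describe them and are no independent evidence.

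No gene of the sensor and its partners passed the test. Nfe2l2 itself had levels of 3.66, 3.95 and 4.04 in controls and 3.90, 3.83 and 4.16 at 5000 ppm, and the groups overlapped. Its difference of 0.08 had a 95% interval from -0.30 to 0.45, and its sign changed under some settings given below. A second, dimmer Nfe2l2 probe had a difference of -0.31 ± 0.16, with all treated mice below all controls and no call. Keap1 had a difference of 0.25 (interval -0.08 to 0.58), and Sqstm1, which draws Keap1 into autophagy, one of 0.48 ± 0.20 (0.27 without control mouse 1), with a dimmer probe at -0.37 ± 0.65. The median over the 8 members of this list was 0.24, and 0.15 without control mouse 1.

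Glutathione synthesis and recycling had the highest median of the 9 Nrf2 axis lists, 0.59, and none of its 11 tested members passed. Slc7a11, the cystine importer that feeds glutathione synthesis, was not well above background on any of the 3 control arrays (-5.42, -6.53 and -5.68) and was so on all 3 at 5000 ppm (-3.45, -3.18 and -2.46). On the scaled processed signal it was at least 4.35-fold higher. That bound was set against the lowest signal called well above background on each control array. The measured difference was 2.85 ± 0.52, with an adjusted p of 0.16 (limma). Under the alternatives given below, single arrays left out aside, that difference ran from 0.93 to 3.45. Gclc, the catalytic subunit of the rate-limiting ligase of glutathione synthesis, went from 3.04, 2.99 and 3.58 to 4.47, 4.68 and 4.75. Its difference was 1.43 ± 0.23, with an adjusted p of 0.088 (limma). The modifier subunit Gclm had a difference of 0.59 ± 0.14, glutathione synthetase Gss 1.17 ± 0.23 and glutathione reductase Gsr 0.60 ± 0.23. For each of these 5 probes no treated mouse overlapped a control. Slc7a11 passed the filter through its signal at 5000 ppm alone, so that for it the filter favoured non-overlap. A second, dimmer Gss probe had overlapping groups and a difference of 0.18 ± 0.51.

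Of 23 glutathione transferases tested, Gsta2 was called and 16 were above 0, with a list median of 0.34. In 10 (43.5%) all treated mice lay above all controls, against 15.8% of all genes. Several members without a call had differences close to 1. Gsta3 went from 5.55, 6.04 and 5.77 to 6.71, 6.74 and 6.84, a difference of 0.98 ± 0.18 (adjusted p 0.14, limma). The mu-class enzymes Gstm1 and Gstm3 had differences of 0.99 ± 0.18 and 0.95 ± 0.20, and the omega-class enzyme Gsto1 one of 0.99 ± 0.34. Dimmer probes for Gstm1 and Gsto1 overlapped between groups, at 0.47 ± 0.63 and 0.47 ± 0.26. The microsomal enzyme Mgst1 differed by 0.61 ± 0.15. Gsta4, which handles the lipid aldehyde 4-hydroxynonenal, had a difference of -0.01 ± 0.52, with control mouse 1 (1.03) well above the other controls (-0.56 and -0.95).

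Among 14 quinone and carbonyl reductases 2 were called (Nqo1 and Cbr3) and 12 were above 0. In 8 (57.1%) there was no overlap upward, against 15.8% of all genes. Their median was 0.34, and 0.22 without control mouse 1. Cbr1 differed by 0.81 ± 0.18 and the aldo-keto reductase Akr1b8 by 0.72 ± 0.26. Of 14 genes of the thioredoxin and peroxiredoxin system 2 were called (Srxn1 and Txnrd1), and 9 (64.3%) had no overlap upward. The median of that list was 0.31, and 0.16 without control mouse 1. Prdx1 and Prdx6, abundant peroxiredoxins, had differences of 0.47 ± 0.18 and 0.53 ± 0.20 on their brightest probes, and a dimmer probe of each overlapped between groups (0.33 ± 0.17 and 0.09 ± 0.44). Gpx2 was the 1 call among 10 glutathione peroxidases, catalase and superoxide dismutases, whose median was 0.16.

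All 8 genes that supply NADPH were above 0, with a median of 0.38 and no call. Pgd, the second oxidative enzyme of the pentose phosphate pathway, had levels of 3.08, 2.81 and 2.97 in controls and of 3.53, 3.62 and 3.44 at 5000 ppm. G6pdx, the first, differed by 0.40 ± 0.18. Heme breakdown and iron storage genes had a median of 0.22 over 7 members, and of 0.14 without control mouse 1. Hmox1, the inducible heme oxygenase and a frequent marker of Nrf2 activity, had overlapping groups (2.17 to 2.47 in controls, 2.19 to 2.73 at 5000 ppm) and a difference of 0.15 with a 95% interval from -0.38 to 0.69. Blvrb, a biliverdin reductase, differed by 0.82 ± 0.17 without passing.

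**Figure D3:**
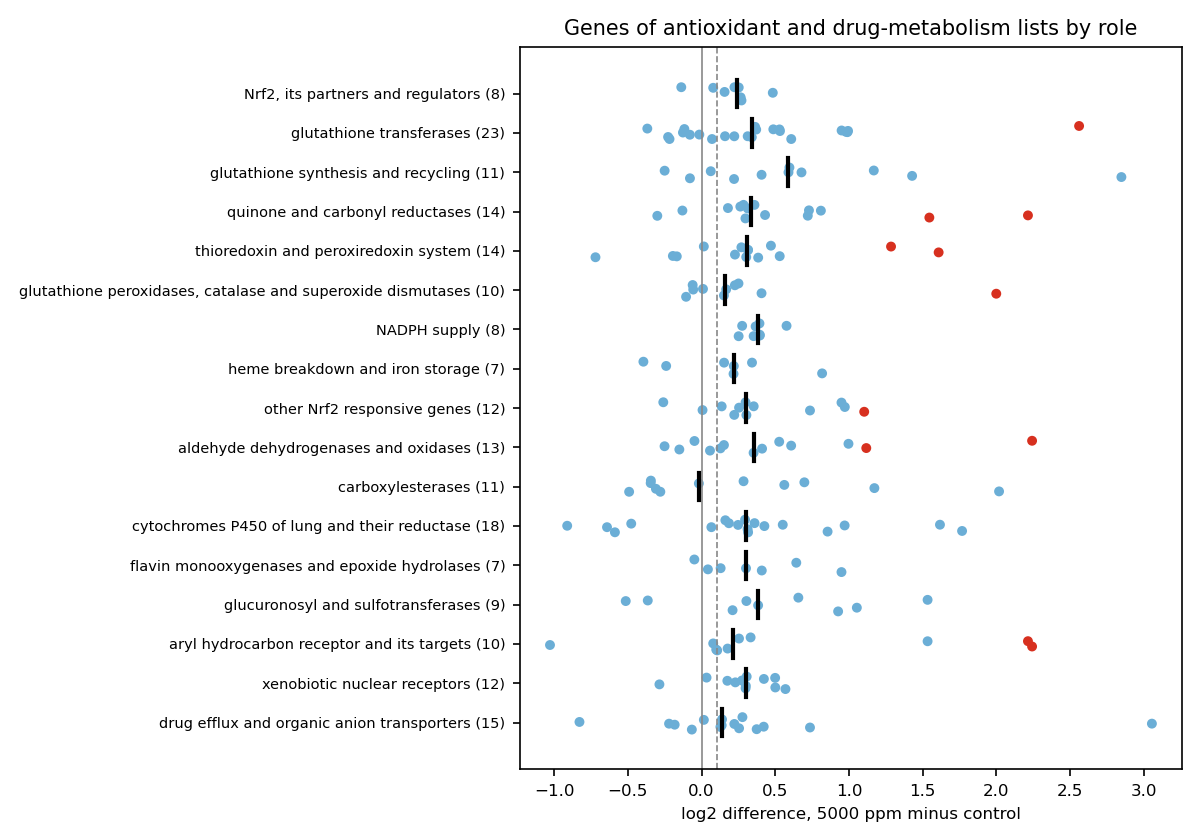
Log2 difference of 5000 ppm minus control (x axis) for each tested gene of 17 lists by role (y axis, with the number of genes), 1 probe per gene. Red points are called genes, black bars the list medians, the solid line 0 and the dashed line the median of all genes at 0.10. Red points lie in 7 of the lists, and the aryl hydrocarbon receptor list repeats Nqo1 and Aldh3a1.

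The promoters of the called genes were searched for the core of the antioxidant response element in the 250 bases before each start. The core was spelled TGACNNNGC or TGAGNNNGC and searched on both strands. It was found before 3 of the 12 annotated starts of the 10 called genes in the RefSeq table (Srxn1, Osgin1 and 1 of 3 starts of Txnrd1), against 23.0% of all 32851 promoters of the same length. The core of the xenobiotic response element, GCGTG, was found before 8 of the 12 starts and in 28.2% of all promoters. All 3 starts of Txnrd1 were among the 8, which belong to 6 genes (Entpd5, Gsta2, Srxn1, Txnrd1, Osgin1 and Aox1). The sequences with the antioxidant core are shown 5′ to 3′ on the plus strand, with each match in capitals, from RefSeq, GRCm38.p6.
Srxn1, chr2:152105274-152105523, plus strand: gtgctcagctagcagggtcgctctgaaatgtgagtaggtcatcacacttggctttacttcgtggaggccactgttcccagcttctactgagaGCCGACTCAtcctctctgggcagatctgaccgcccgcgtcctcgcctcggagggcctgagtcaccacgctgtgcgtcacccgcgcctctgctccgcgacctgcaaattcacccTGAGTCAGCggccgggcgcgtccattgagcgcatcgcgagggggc
Txnrd1, chr10:82858956-82859205, plus strand: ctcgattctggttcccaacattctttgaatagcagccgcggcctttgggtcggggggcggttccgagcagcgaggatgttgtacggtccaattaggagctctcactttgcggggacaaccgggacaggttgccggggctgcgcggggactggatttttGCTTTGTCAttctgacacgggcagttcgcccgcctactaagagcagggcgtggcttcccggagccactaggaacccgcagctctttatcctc
Osgin1, chr8:119436897-119437146, plus strand: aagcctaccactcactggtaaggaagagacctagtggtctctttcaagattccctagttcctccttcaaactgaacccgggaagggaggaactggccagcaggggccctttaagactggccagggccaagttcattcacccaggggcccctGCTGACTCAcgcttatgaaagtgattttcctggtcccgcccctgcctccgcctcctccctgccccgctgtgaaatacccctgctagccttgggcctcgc
In Srxn1 the second match starts 45 bases before the start, and the matches of Txnrd1 and Osgin1 start 92 and 99 bases before it. These are matches of letters and not measured binding sites.

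Drug metabolism was described over 117 genes, 93 of them tested. This group shares 7 tested genes with the Nrf2 axis lists (Abcc1, Abcc3, Abcc4, Ephx1, Nfe2l2, Nqo1 and Ugdh). Its 3 called genes were Aldh3a1, Aox1 and Nqo1. Of the 93, 71 were above 0, 32 (34.4%) had all treated mice above all controls and 6 had all below, and the median was 0.28. Without control mouse 1 that median was 0.17.

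Among 18 cytochrome P450 genes of lung and their partners none passed, 14 were above 0, and the median was 0.30. In 8 (44.4%) all treated mice lay above all controls, against 15.8% of all genes, and in 2 all lay below. Cyp2a5, an enzyme of coumarin and nicotine oxidation, had levels of 4.87, 3.95 and 5.01 in controls and of 5.76, 7.05 and 5.87 at 5000 ppm, a difference of 1.62 ± 0.60. Its close relative Cyp2a4 followed the same mice, at 4.77, 6.22 and 4.84 after treatment, with a difference of 1.77 ± 0.69. In both, mouse 2 at 5000 ppm was the highest. Cyp2b10, the main target of the constitutive androstane receptor, was read by 2 probes that differed in sign, 0.43 ± 0.24 (0.22 without control mouse 1) and -0.43 ± 0.42. Cyp2f2, the club cell enzyme that activates naphthalene, differed by 0.31 ± 0.20 and the P450 reductase Por by 0.30 ± 0.21 (0.14 without control mouse 1). Cyp1a1, the main target of the aryl hydrocarbon receptor, went the other way from Aldh3a1 and Nqo1, at -0.99, -1.51 and -1.13 in controls and -1.86, -2.51 and -2.35 at 5000 ppm. Its difference of -1.03 ± 0.42 did not pass (adjusted p 0.97, limma). In the list of that receptor and its targets 9 of 10 tested genes were above 0 and 1 was below. Its 2 called genes were Aldh3a1 and Nqo1, and its median was 0.22, or 0.10 without control mouse 1. Cyp2j6 and Cyp2c55 were the 2 genes of the P450 list with all treated mice below all controls, with differences of -0.64 ± 0.38 (-0.21 without control mouse 1) and -0.91 ± 0.50. Dimmer probes for Cyp2j6 and Cyp2c55 overlapped between groups, at -0.33 ± 0.32 and -0.02 ± 0.66.

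The receptors of that system did not pass either. Nr1i3 differed by -0.29 (95% interval -0.78 to 0.21) and Nr1i2, a dim probe, by 0.18 (interval -0.70 to 1.05). Of 12 nuclear receptors 11 were above 0, with a median of 0.30 that was 0.17 without control mouse 1.

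Conjugation and hydrolysis genes had large single members without a call. Ugt1a6a and Ugt1a6b, glucuronosyltransferases for small phenols, had differences of 1.53 ± 0.30 and 0.93 ± 0.16 with no overlap. Dimmer Ugt1a6b probes overlapped between groups, at 0.50 ± 0.48 and 0.44 ± 0.41. Ces1g, a carboxylesterase, had levels of -1.13, -1.95 and -1.03 in controls and of 0.81, 0.24 and 0.91 at 5000 ppm, a difference of 2.02 ± 0.41 (adjusted p 0.25, limma). Ces1f and Ces1e differed by 1.17 ± 0.34 and 0.70 ± 0.15. The 11 carboxylesterases tested nonetheless had a median of -0.02, with 5 above 0 and 6 below, and without control mouse 1 the median was 0.12. The microsomal epoxide hydrolase Ephx1 differed by 0.95 ± 0.20, and the cytosolic aldehyde dehydrogenase Aldh1a1 by 1.0 ± 0.22.

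Among transporters, the organic anion carrier gene Slco1a5 had the largest difference, 3.06 ± 0.55. Under the alternatives given below, single arrays left out aside, that difference ran from 1.31 to 3.08. The levels of Slco1a5 were -1.30, -1.65 and -2.30 at 5000 ppm, and it was well above background on 1 of 3 control arrays (-5.63, -4.91 and -3.87). It thus passed the filter through its signal at 5000 ppm alone. At 2500 ppm it was at -4.24, -4.23 and -3.26, with no steady order by dose below that. Its levels were -4.1, -3.43 and -2.31 at 500 ppm and -4.01, -3.12 and -2.53 at 20 ppm. Its relative Slco1a4 lay lower in all 3 treated mice (-0.83 ± 0.21), and the conjugate exporter Abcc3 higher (0.74 ± 0.18), none of them with a call. The 15 transporters tested had a median of 0.14, which turned to -0.03 without control mouse 1.

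Among named genes without a call whose groups did not overlap and whose difference was at least 1 upward, the 12 with the smallest p had adjusted p-values of 0.0839 to 0.23 (limma). They include Slc7a11, Slco1a5, Ugt1a6a, Gss and Gclc, given above. Agrp, a peptide known from hypothalamic control of feeding, had levels of -1.15, -1.08 and -0.60 in controls and of 0.19, 0.63 and 0.53 at 5000 ppm. Ghrl, which encodes the gut hormone ghrelin, went from -2.02, -2.01 and -2.0 to -0.89, -1.02 and -0.46. Sfn, the epithelial 14-3-3 sigma protein, differed by 1.43 ± 0.24, the chemokine gene Cxcl5 by 2.61 ± 0.44, the peroxisomal oxidase gene Acox2 by 1.08 ± 0.19, Hrct1 by 1.01 ± 0.19 and Fetub, a fetuin, by 1.21 ± 0.24. Cxcl5, a neutrophil attractant, was scattered in controls (-1.38, -2.54 and -0.67) and tight at 5000 ppm (1.11, 0.94 and 1.20).

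The 12 downward counterparts were mostly dim. Olfr665, Olfr611, Moxd2, Olfr612, Myod1, Olfr295, Ccdc182, Olfr476 and Olfr218 were not well above background on any array at 5000 ppm, and their control means lay between -4.75 and -4.12. Set against the lowest signal called well above background on each 5000 ppm array, the control means of these 9 were 1.02-fold to 1.57-fold higher. The 9 passed the filter through their control signal alone and were chosen for non-overlap, so that their direction followed from the choice. With normexp as the background correction Olfr611, Moxd2, Olfr612, Myod1, Olfr295, Olfr476 and Olfr218 changed sign. For Myo3b 1 dim probe was likewise not well above background on any array at 5000 ppm (1.71-fold on the same measure). A much brighter Myo3b probe overlapped between groups, at a difference of 0.09 ± 0.25. Olfr1339 was well above background on 1 of 3 arrays at 5000 ppm. With the arrays at 5000 ppm at the lower raw 75th percentile given above, 367 probes were well above background on all control arrays and on no array at 5000 ppm, and 14 the other way round. The part of array brightness in these was not tested.

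Cwc22, a spliceosome protein gene, was the 1 bright member. Its main probe had levels of 2.57, 2.05 and 1.47 in controls and of -0.56, -0.54 and 1.13 at 5000 ppm, a difference of -2.02 ± 0.46 (adjusted p 0.36, limma). Across the other diets it was high in all mice at 20 ppm (1.96 to 3.46) and low in all at 500 ppm (-0.69 to -0.43) and 2500 ppm (-0.91 to -0.61). On this probe the mice thus fell at a high or a low level, and mouse 3 at 5000 ppm sat nearer the high level. Mice 1 and 2 at 500 ppm shared the slide of the controls and were low. Another, dimmer probe differed by -1.57 ± 0.38 without overlap, but its levels were less cleanly split. On it mouse 3 at 5000 ppm (-0.77) and mouse 3 at 500 ppm (-0.94) were intermediate. They lay below the lowest control (-0.12) and above the other mice at 500 and 5000 ppm (-1.68 at the highest). The dimmest probe overlapped between groups, at -0.77 ± 0.53.

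Stress, growth and inflammation lists held no call. Among 16 glucocorticoid responsive genes 15 were above 0 with a median of 0.65. All treated mice lay above all controls in 7 of them (43.8%), against 15.8% of all genes. For this list the median of 2500 ppm minus control was 0.60. Within slide 2, its median of 5000 minus 2500 ppm was -0.04. The largest members were Hif3a, at 1.13 ± 0.42, and the clock gene Per1, at 0.94 ± 0.49 with overlap (0.45 without control mouse 1). This list's mean level was 2.37 in control mouse 1 and 2.86 to 3.13 in the other controls, against 3.28 to 3.51 at 5000 ppm, and its median without control mouse 1 was 0.47. Of 19 genes of unfolded protein and amino acid stress 18 were above 0 (median 0.30), led by Creld2 (0.69 ± 0.19) and Asns (0.62 ± 0.20, with a dimmer probe at 0.04 ± 0.43). The p53 targets had a median of 0.19, and of 0.06 without control mouse 1, with the stress cytokine gene Gdf15 at 0.97 ± 0.28, and heat shock chaperones had a median of 0.12, with Hspb1 at 0.75 ± 0.24.

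The 38 cell cycle genes tested had a median of -0.07 (-0.17 without control mouse 1), and none had all treated mice above all controls. Mki67 and Top2a, marks of dividing cells, had differences of -0.24 (95% interval -0.86 to 0.37) and -0.33 (interval -1.23 to 0.57). A dimmer Top2a probe, well above background on 1 of 3 arrays at 5000 ppm, had overlapping groups and a difference of -1.43 ± 0.79. Voltage-gated sodium channels, the insecticide's targets, had a median of -0.17 over 12 tested genes, and of -0.28 without control mouse 1. Scn3b, a beta subunit, differed by -0.64 ± 0.23 and Scn11a by -0.57 ± 0.36 (-0.14 without 5000 ppm mouse 1), and neither passed. The 27 cytokine, chemokine and acute phase genes had a median of 0.01 (0.07 without control mouse 1), with Ccl20 at 1.75 ± 0.53.

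Marker lists of lung cell types, and of tissues that can be taken with the lung, were set beside these results. No list held a call. Over all 18942 genes, 12449 were above 0 and 15.8% had all treated mice above all controls. Of 14 club cell genes 12 were above 0 and 6 (42.9%) had all treated mice above all controls, with a median difference of 0.31. Of 18 ciliated cell genes 16 were above 0 and 7 (38.9%) had no overlap upward, with a median of 0.32. The median over the Nrf2 axis genes was 0.30. The median of 5000 minus 2500 ppm was 0.16 for club cell genes, -0.05 for ciliated cell genes and 0.20 for the Nrf2 axis. In mouse 2 at 5000 ppm the mean scaled log2 level of the club cell genes was 4.89, against 3.25 to 3.95 in the other 5 mice. The same mouse was highest for the ciliated cell genes (2.42 against 1.74 to 2.05), 11 cardiac muscle genes of the pulmonary veins (2.40 against -0.75 to 1.23) and 6 adipocyte genes (2.36 against -2.23 to 0.47). Mucous cell genes were high in that mouse (2.01) and in control mouse 3 (1.61), and from -2.12 to -0.44 in the others. Single genes show the same mouse, with Bpifa1, an airway secretory protein, at 4.62 against 1.02 to 1.21, and the atrial peptide gene Nppa at 1.78 against -4.05 to -1.98. Without that mouse the called probes kept their direction, with Gsta2 at 2.56 and Nqo1 at 2.22, and 5 of the 15 passed.

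Smooth muscle genes had a median of 0.21, and of 0.14 without control mouse 1. Among them Cnn1, a contractile protein, stood at 1.23 ± 0.42 and was again highest in mouse 2 (5.20), with a dimmer probe at 0.32 ± 0.54. All 12 B and plasma cell genes were below 0, with a median of -0.30 that was -0.18 without control mouse 1. Of 16 T cell genes 15 were below 0, with a median of -0.17 that was -0.28 without it. Alveolar macrophage genes had a median of -0.22, with Ear1 at -1.02 ± 0.43 (-0.55 without 5000 ppm mouse 3). Of 9 mast cell, basophil and eosinophil genes 7 were below 0, with a median of -0.26 (-0.42 without control mouse 1), while the mast cell protease Mcpt4 stood at 1.41 ± 0.56. Alveolar type 2 genes had a median of -0.14 (-0.08 without control mouse 1), and the type 1 median of 0.15 turned to -0.01 without that mouse. Scgb1a1 differed by 0.32 ± 0.20, Sftpc by 0.18 ± 0.15 and the ciliated cell regulator Foxj1 by -0.07 ± 0.30. The part of tissue makeup in the other results was not tested.

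**Figure D4:**
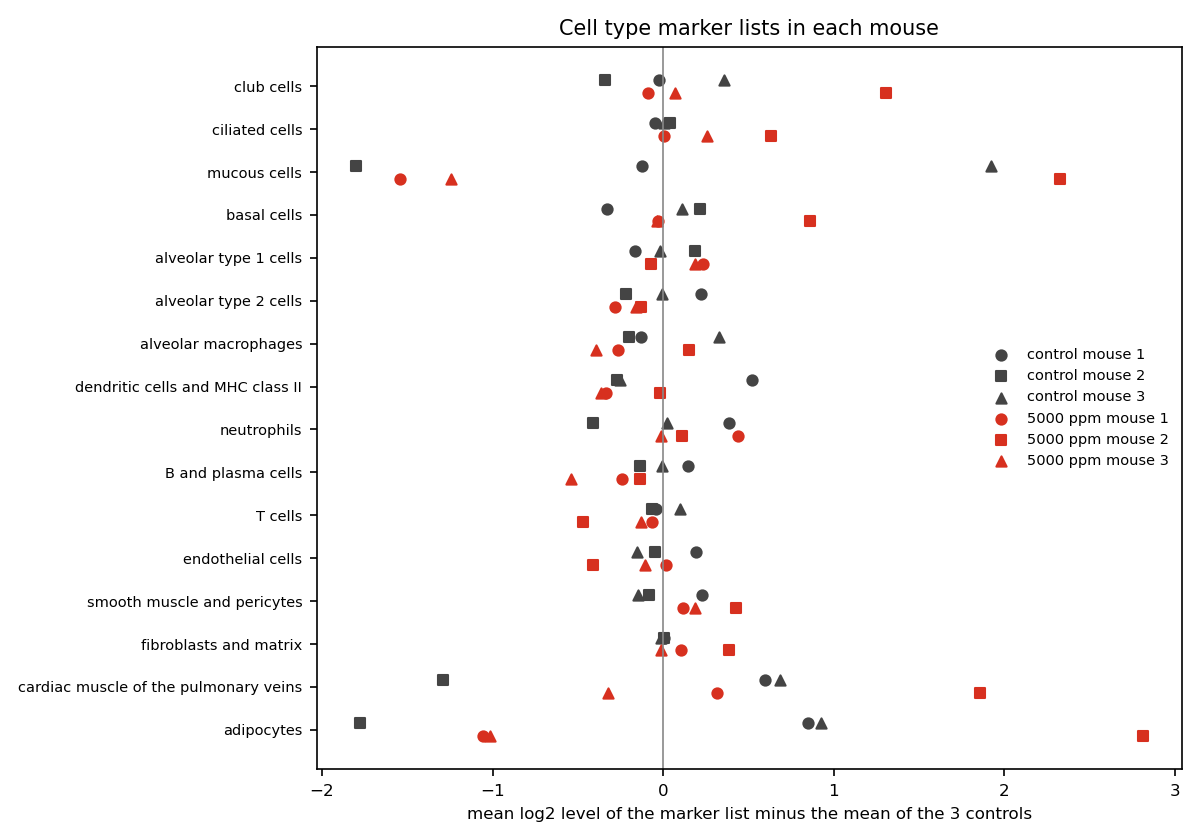
Mean scaled log2 level of each marker list minus the mean of the 3 controls (x axis) for 16 lists (y axis), with 1 point per mouse, grey for control and red for 5000 ppm. Mouse 2 at 5000 ppm (red squares) lies farthest right for club, ciliated, mucous and basal cells, smooth muscle, fibroblasts, cardiac muscle and adipocytes.

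The precision of the comparison was set by 3 mice per diet. The median SE was 0.26, and for 65.5% of tested probes the 95% interval of the difference excluded a 2-fold change either way. Among the 193 tested genes of the Nrf2 axis and drug metabolism this held for 115. Of the other 78 genes, the interval of 41 held 0 together with a 2-fold change, that of 35 lay above 0 and that of 2 below.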

How the data were processed

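The labels call the mice of each diet biological replicates. The scanner files came from Agilent Feature Extraction 10.7.3.1, per the file headers, and hold linear intensity: a processed signal from which background was already subtracted, and the medians of spot and local background. The deposited value table holds log2 values, which equalled log2 of the processed signal plus 1 constant per array (r = 1). Flagged and control spots were left out, spots of a probe averaged, and log2 signals set to each array's 75th percentile, which gave 56605 probes. Symbols came from RefSeq accessions (GRCm38.p6); 21930 probes had none. Limma 3.58.1 (R 4.3.3) was fitted with 1 coefficient per diet over all 15 arrays (10 residual degrees of freedom), with Benjamini-Hochberg adjustment and two-sided tests, and tested on simulated data. The number of arrays limits the precision.

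Named were all called probes, the 12 highest and 12 lowest by p with a difference of at least 1 and no overlap, members of the Nrf2 and drug metabolism lists by role, the 2 largest of every other list, and fixed marker genes. The 54 lists (760 genes, 704 tested), the groups and the rules were chosen with earlier results of these data known. Alternatives were normexp with an offset of 50, quantile or median scaling, the deposited values, other probe filters, blocks for slide or replicate number, other variance settings and arrays left out. Like-numbered mice of the 2 diets did not deviate together (r -0.17, -0.04 and -0.29), so mice were not paired.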

Additional observations from a re-analysis of the deposited data

How the results depend on the processing

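Of the 15 calls, Gsta2, Gm10639 and the chr9:78107225-78118850 transcript passed under all 30 alternatives run. The count against control was 9 with the array median as the scale, 5 with slide as a random block, 8 with the 2 groups alone, 102 with array weights, 6 without control mouse 1 and 20 ppm mouse 1 together, 26 without 500 ppm mouse 3 and 2500 ppm mouse 3 together, and 6020 (5941 of them lower) with slide as a fixed block. With arrays left out singly it ran from 5 to 20. It was 5 without control mouse 1 or 5000 ppm mouse 2, 6 without control mouse 2 or 5000 ppm mouse 1, 7 without 5000 ppm mouse 3 and 9 without control mouse 3. A replicate block, which pairs like-numbered mice, gave 10, of which 9 were among the 15, and no filter also gave 10. Against 2500 ppm the count of 0 became 1 with the replicate block and 539 with array weights, ran from 0 to 9 with single arrays left out (9 without 2500 ppm mouse 3), and was 0 in a fit of these 6 arrays alone, chosen after seeing the data. The causes were not tested.

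Signs changed for 17 of 95 named results, none of them called. With normexp these were Olfr611 (0.0497), Moxd2 (0.00519), Olfr612 (0.0271), Myod1 (0.093), Olfr295 (0.16), Olfr476 (0.0275), Olfr218 (0.0168), Cyp2c55 (0.0782) and Scn11a (0.12). With quantile normalization they were Scgb1a1 (-0.0345), Sftpc (-0.0846) and Nfe2l2 (-0.0547). With array weights they were Nfe2l2 (-0.0218), Foxj1 (0.15) and Gsta4 (0.46), and with the array median as the scale Gsta4 (0.00634). With slide as a fixed block they were Nr1i2 (-1.12) and Foxj1 (0.12), and as a random block Nr1i2 (-0.25). Without control mouse 1 and 20 ppm mouse 1 together they were Nfe2l2 (-0.0331), Foxj1 (0.22) and Gsta4 (0.58). With single arrays left out the difference ran from -0.0815 to 1.72 for Bpifa1, -0.845 to 2.02 for Nppa (both lowest without 5000 ppm mouse 2), -0.0331 to 0.159 for Nfe2l2, -0.0788 to 0.509 for Nr1i2, -0.252 to 0.224 for Foxj1 and -0.41 to 0.581 for Gsta4.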
